A study of Mus musculus with 3 samples.

Results

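The genes described here encode the enzymes that bring pyruvate into mitochondria and oxidise it in the tricarboxylic acid (TCA) cycle, together with the malate-aspartate shuttle, the malic enzymes and the transhydrogenase Nnt. They were chosen by symbol from a list of 38, and all 38 were found among the 18038 genes of the table. The samples were hearts of wild-type mice of the inbred strain C57BL/6J, taken on day 9 of postnatal life. There were 3 hearts in a single group, called hearts 1, 2 and 3 after their replicate numbers, with no second condition. With a single group, genes were compared with each other inside each heart, and each gene's hearts with one another. The labels do not say whether the hearts came from separate animals or litters, and p-values therefore reflect no more than how these samples differ, which may be technical variation.

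As background, pyruvate made by glycolysis crosses the inner mitochondrial membrane through the carrier formed by Mpc1 and Mpc2. The pyruvate dehydrogenase complex then turns it into acetyl-CoA, and citrate synthase joins acetyl-CoA to oxaloacetate to start the cycle. NADH made in the cytosol cannot cross that membrane, and the malate-aspartate shuttle moves its electrons inside by paired malate dehydrogenases and aspartate aminotransferases. Around birth the mouse heart shifts its fuel use from glucose and lactate towards fatty acids, and the kinases that switch off pyruvate dehydrogenase take part in that choice of fuel.

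Library totals were 17766501, 18643408 and 18768094 counts. All 10 cardiomyocyte markers examined were detected, at 1 CPM (counts per 1000000 of the library total) or more in each heart, and summed to 102946 to 108840 TPM (length-scaled abundance, total 1000000 per heart). Markers of endothelium (8 of 8 detected, 1004 to 1146 TPM summed), fibroblasts (8 of 8, 4146 to 4431) and macrophages (8 of 8, 311 to 386) were present in each heart. So were red cell genes (7 of 7, 8558 to 14196 TPM), adipocyte genes (10 of 12, 3383 to 3753) and nerve and glia genes (6 of 8, 27.99 to 61.3). Most of the adipocyte sum was Fabp4, a gene of fat cells and endothelium, at 2987 to 3076 TPM. Skeletal muscle genes summed to 41.2 to 141 TPM with 2 of 7 detected, and liver genes to 14.2 to 34.3 TPM with 1 of 7 detected. Most of the skeletal muscle sum was Acta1, at 24.7, 74.2 and 129.6 TPM in hearts 1, 2 and 3. Heart 1 stood apart in 12 lung airway genes, which summed to 2476 TPM there and to 7.08 and 13.7 TPM in hearts 2 and 3, led by Scgb1a1. In bulk tissue, fewer cells of a type and less RNA per cell cannot be told apart.

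All 38 genes were detected, and the lowest level in any heart was 10.7 CPM, for Pcx in heart 2. Together they held 1.496%, 1.65% and 1.66% of all TPM in hearts 1, 2 and 3. Levels ran from 1934 ± 133 TPM (SD, n = 3 throughout) for Mdh2 to 5.43 ± 0.616 TPM for Pdp2. The median member was at 261 TPM, against 19.1 TPM for the 12958 detected genes. Of the 38 genes, 4 reached 1000 TPM (Mdh2, Idh2, Mdh1 and Cs), 12 reached 500 TPM, 21 reached 100 TPM and 36 reached 10 TPM. The highest levels belonged to core cycle and shuttle enzymes. The lowest belonged to pyruvate dehydrogenase phosphatases, carboxylation enzymes and minor isoforms.

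**Figure D1:**
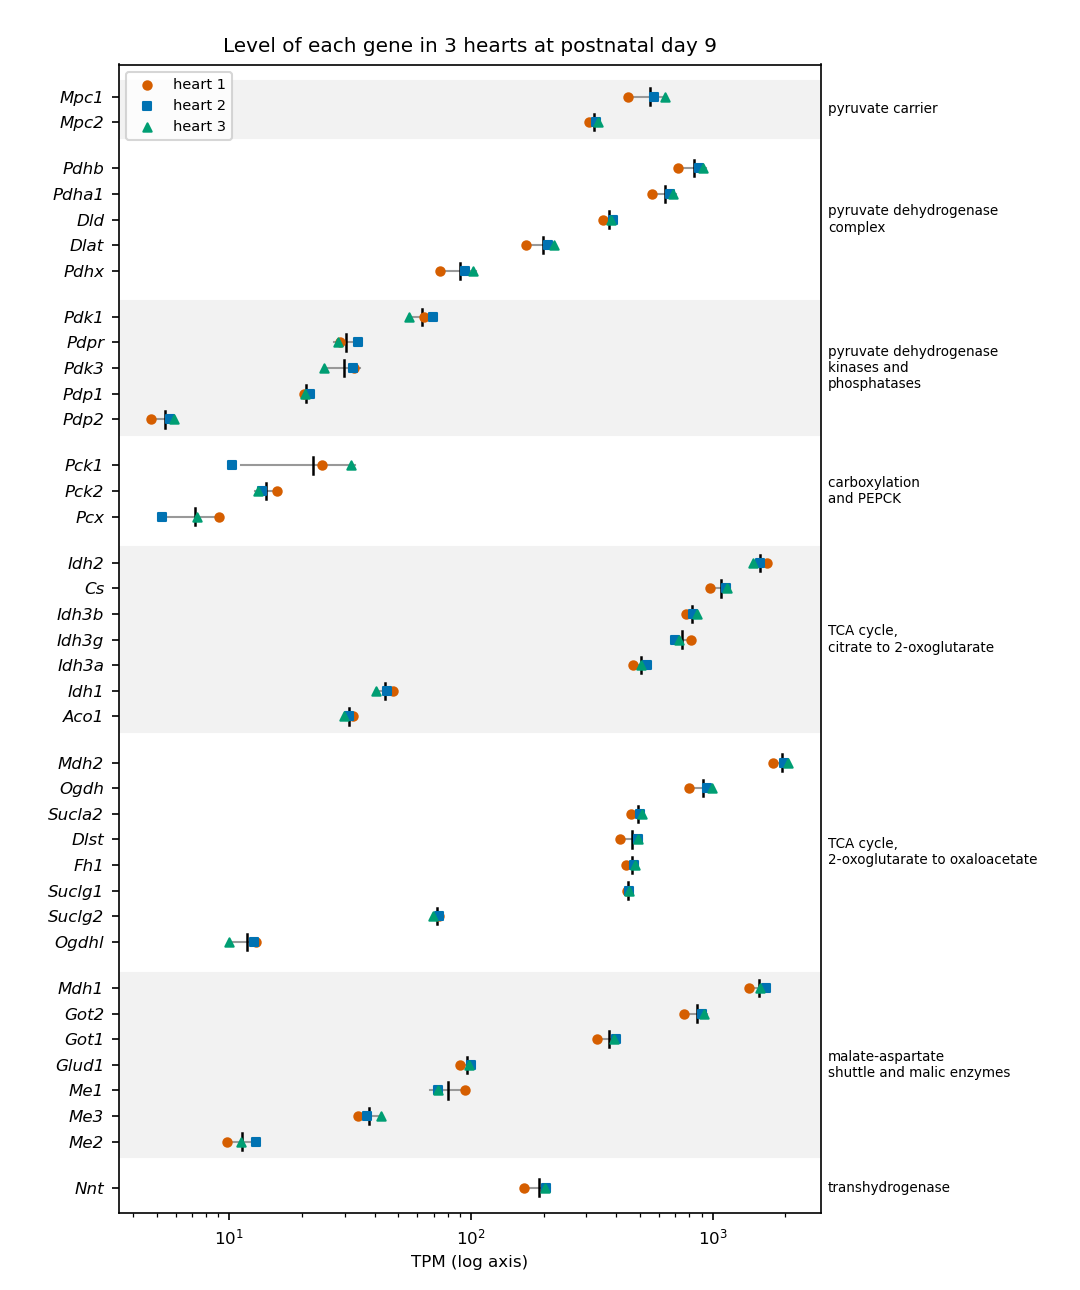
TPM on a log axis for the 38 genes, grouped by step. Each symbol is 1 heart, the vertical tick is the mean and the grey line spans 1 SD on either side. Mdh2, Idh2, Mdh1 and Cs lie highest and Pdp2 and Pcx lowest, and the points of Pck1 are spread from 10.2 to 31.99 TPM.

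The sequence before the start site is printed for 2 of the genes, which differ in level and in how steady they were. Pck1 was the only one of the 38 that varied between hearts, and Ogdh was the most abundant subunit of the 2-oxoglutarate dehydrogenase complex. Sequences are from RefSeq (GRCm38.p6), 5′ to 3′ on the plus strand, which is the strand of each gene. The printed run of Ogdh is 250 bases, before the most upstream of its 6 listed start sites, and that of Pck1 is 225 bases, ended where the first annotated exon begins. Capitals mark a match to a searched motif.
Pck1 (chr2:173152823-173153047): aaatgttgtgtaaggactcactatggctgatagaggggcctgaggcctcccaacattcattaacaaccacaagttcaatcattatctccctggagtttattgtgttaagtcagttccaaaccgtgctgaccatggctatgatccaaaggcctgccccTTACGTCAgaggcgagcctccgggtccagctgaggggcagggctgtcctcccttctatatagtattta
Ogdh (chr11:6291347-6291596): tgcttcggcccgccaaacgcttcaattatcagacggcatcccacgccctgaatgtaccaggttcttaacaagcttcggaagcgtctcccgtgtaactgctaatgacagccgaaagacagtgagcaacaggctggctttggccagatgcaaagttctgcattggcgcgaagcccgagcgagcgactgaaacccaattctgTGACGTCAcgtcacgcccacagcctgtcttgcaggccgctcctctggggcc

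Promoter sequence was found for 34 of the 38 genes, 6 of them with more than 1 start site. Motifs were searched on both strands in the 250 bases upstream of each start, matches of different motifs could overlap, and a gene was counted where any of its starts had a match. The motif TTACGTCA, a form of the cyclic AMP response element, was found in 1 of 34 (Pck1, from base -93) and in 0.525% of the 27025 genes with promoter sequence. The palindromic form TGACGTCA was found in 3 of 34 (Mdh2, Ogdh and Pdpr) against 1.77% of all genes. CAAGGTCA, the extended half-site of orphan nuclear receptors, was in 0 of 34 and 1.51% of all genes. The remaining motifs were the one of nuclear respiratory factor 1 (1 of 34, 4.23% of all), CCGGAAG (3 of 34, 7.83% of all) and CACGTG (4 of 34, 6.86% of all). Ogdh is among the 4 through other start sites than the one printed. A match describes the letters of this window and no binding was measured. Median GC content before the first listed start was 61.6% over the 34 genes and 60.0% over 10316 detected genes. Pck1 (50.8% GC, 5 CpG) and Pck2 (51.6% GC, 6 CpG) had the fewest CpG of the 34, against a median of 17.5, while Glud1 (82.0% GC, 46 CpG) and Pdpr (78.4% GC, 43 CpG) had the most.

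Ratios between genes were tested within each heart by the edgeR quasi-likelihood test on counts per length. All 703 pairs of the 38 genes were tested and p-values adjusted over all of them. Of these, 650 differed (edgeR adjusted p under 0.05), which is 92.5%. Of 33 pairs chosen by role, 30 differed, a share to be read against that one. Between neighbours in the order of levels, 10 of 37 differed and 27 did not. Idh2 and Mdh1, next to each other below Mdh2, were not distinguished (log2 ratio 0.02, 95% interval -0.19 to 0.24). From Ogdh down to Pdha1 no neighbour differed, nor did any from Mpc1 down to Suclg1 or from Glud1 down to Pdk1. The same held from Idh1 down to Pdp1 and, at the low end, from Pck2 down to Pdp2. The order of neighbours within those runs is therefore not set by these data.

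**Figure D2:**
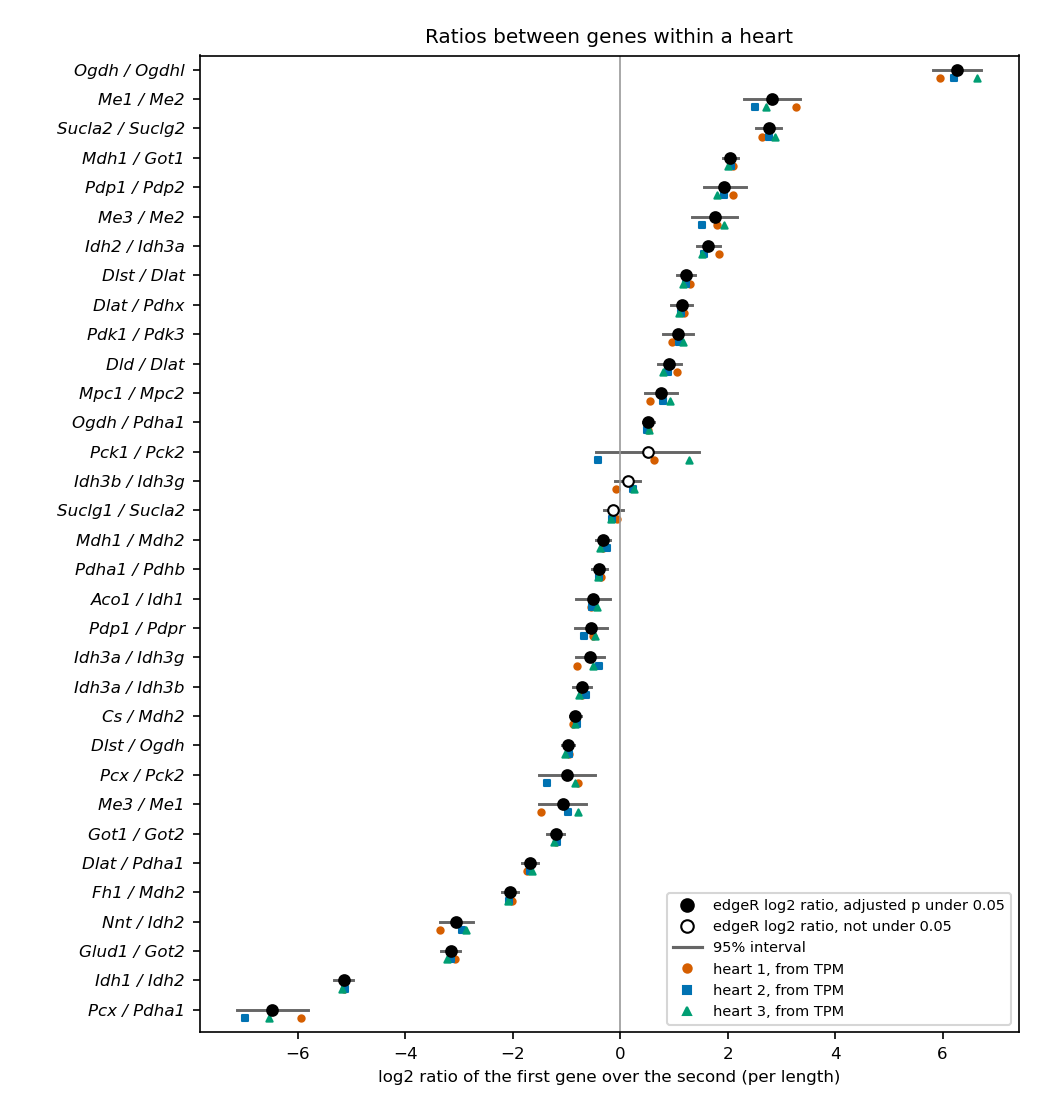
Log2 ratio of the first gene over the second for 33 pairs chosen by role. Large circles are edgeR estimates, filled where the adjusted p was under 0.05, with 95% intervals as lines, and small coloured symbols are the hearts' own TPM ratios. Of the 33 pairs, 30 are filled, and the widest interval of the 3 open ones belongs to Pck1 over Pck2.

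Pyruvate entry was led by Mpc1 (Entrez gene 55951, chromosome 17), 1 of the carrier's 2 subunits. Mpc1 was at 447, 571 and 636 TPM in hearts 1, 2 and 3 and its partner Mpc2 at 306, 330 and 334 TPM. Mpc1 was the higher in each heart, with a log2 ratio between them of 0.75 (SE 0.114, edgeR adjusted p = 0.00179). With the longest annotated transcript as length the ratio was 2.97, since the longest transcript of Mpc2 is 5.24 times the length implied by the table. The level of Mpc1 in heart 1 was the lowest of the 3, with a coefficient of variation of 17.4% against 4.63% for Mpc2.

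In the pyruvate dehydrogenase complex, the E1 subunits were the most abundant. Pdhb, the E1 beta subunit, was at 718, 874 and 913 TPM and Pdha1, the X-linked E1 alpha subunit whose phosphorylation switches the complex off, at 559, 667 and 683 TPM. Heart 1 was lowest for each, as it was for 32.6% of detected genes. Pdha1 was below Pdhb by -0.39 (SE 0.0534, edgeR adjusted p = 0.0012), but above it with the longest annotated transcript as length (0.34, edgeR adjusted p = 0.00226) and on counts not divided by length (0.60, edgeR adjusted p = 0.000194). Counts of Pdha1 were fractional, as where reads are split between genes, so its level is less certain.

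The other subunits were lower. Dlat, the E2 core that carries acetyl groups on lipoic acid, was at 169, 208 and 220 TPM, below Pdha1 by -1.68 (SE 0.0589, edgeR adjusted p = 5.17e-06). Pdhx, which anchors E3 to the core, was at 74.3, 94.8 and 102 TPM, and Dlat exceeded it by 1.14 (edgeR adjusted p = 5.93e-05), and by 1.84 on counts not divided by length. Dld, the E3 enzyme that also serves other 2-oxo acid dehydrogenases, was at 352, 387 and 381 TPM. It exceeded Dlat by 0.92 (edgeR adjusted p = 0.000188), a call lost on counts not divided by length (0.06, edgeR adjusted p = 0.466). All 5 subunits were lowest in heart 1.

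The kinases and phosphatases in the set, which control the complex's phosphorylation, summed to 150 ± 14.7 TPM, against 2135 ± 229 TPM for the 5 subunits. Pdk1, a kinase known as a hypoxia-induced gene, was at 63.9, 70.0 and 55.2 TPM and Pdk3, an X-linked kinase, at 32.7, 32.5 and 24.6 TPM. Pdk1 exceeded Pdk3 by 1.08 (SE 0.109, edgeR adjusted p = 0.000342), or 2.49 on counts not divided by length, and heart 3 was lowest for each. The phosphatase Pdp1 was at 20.3, 21.5 and 20.5 TPM and its paralog Pdp2 at 4.73, 5.66 and 5.90 TPM. The ratio of Pdp1 to Pdp2 was 1.94 (SE 0.151, edgeR adjusted p = 0.000113). Pdpr, the regulatory subunit of the phosphatase, was at 28.8, 34.2 and 28.3 TPM, above Pdp1 by a ratio of Pdp1 to Pdpr of -0.54 (edgeR adjusted p = 0.00711). That call was lost without heart 2 (-0.49, edgeR adjusted p = 0.0516). The log2 ratio moved to -1.17 with the longest annotated transcript as length and -1.41 on counts not divided by length.

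The kinases Pdk2 and Pdk4, which are not in the chosen list, were at 331 ± 39.5 and 293 ± 22.6 TPM. They summed to 624 ± 58.0 TPM, a log2 ratio of 2.75 ± 0.161 over Pdk1 and Pdk3 together (93.0 ± 11.8 TPM). The 4 kinases exceeded the phosphatases Pdp1 and Pdp2 (26.2 ± 1.08 TPM) by 4.77 ± 0.178, with 4.97, 4.71 and 4.63 in hearts 1, 2 and 3. These sums carry no test.

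Carboxylation and phosphoenolpyruvate genes were the lowest group, at 43.6 ± 12.6 TPM summed. Pcx, pyruvate carboxylase, which refills the cycle with oxaloacetate, was at 9.07, 5.28 and 7.38 TPM. It lay below Pdha1, which belongs to another route out of pyruvate, by -6.48 (SE 0.251, edgeR adjusted p = 7.32e-06). Pck2, the mitochondrial phosphoenolpyruvate carboxykinase, was at 15.7, 13.6 and 13.2 TPM. Pcx was below Pck2 by -0.99 (SE 0.198, edgeR adjusted p = 0.00544), a call lost with the longest annotated transcript as length (-0.43, edgeR adjusted p = 0.0914).

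Pck1, the cytosolic carboxykinase of gluconeogenesis and of glycerol synthesis in fat, was at 24.3, 10.2 and 31.99 TPM (557, 242 and 788 counts). Heart 2 was lowest and heart 3 highest, a range of 3.12-fold. The ratio of Pck1 to Pck2 was above 0 in hearts 1 and 3 (0.62 and 1.28) and below it in heart 2 (-0.41). It did not pass the test (0.51, 95% interval -0.45 to 1.47, edgeR adjusted p = 0.233). It passed without heart 2 (0.97, edgeR adjusted p = 4.34e-05), with the longest annotated transcript as length (1.00, edgeR adjusted p = 0.0487) and with no heart block (0.66, edgeR adjusted p = 0.0446).

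From citrate to 2-oxoglutarate, the mitochondrial enzymes dominated. Cs, citrate synthase, was at 976, 1132 and 1144 TPM, lowest in heart 1. Idh2, the mitochondrial NADP-dependent isocitrate dehydrogenase, was at 1686, 1566 and 1470 TPM, with heart 1 highest. Its cytosolic counterpart Idh1 was at 47.4, 44.8 and 40.5 TPM, below Idh2 by -5.15 (SE 0.0692, edgeR adjusted p = 9.21e-07). Aco1, the cytosolic aconitase that doubles as iron regulatory protein, was at 32.6, 31.1 and 29.9 TPM. The table's spans of Aco1 (467 kb against 55.7 kb in RefSeq) and Idh2 (46.7 kb against 23.8 kb) reach past the RefSeq genes, so reads from beyond them may be included in either level. Aco1 was below Idh1 by -0.50 (edgeR adjusted p = 0.0109). That call was lost without heart 1 (-0.48, edgeR adjusted p = 0.0588) and with the longest annotated transcript as length (-0.28, edgeR adjusted p = 0.0747), and turned to 0.46 on counts not divided by length (edgeR adjusted p = 0.0147).

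The NAD-dependent isocitrate dehydrogenase of the cycle has a catalytic alpha subunit, Idh3a, and the subunits Idh3b and Idh3g. Idh3a was at 470, 533 and 508 TPM, Idh3b at 773, 826 and 860 TPM and Idh3g, an X-linked gene, at 816, 697 and 725 TPM. Heart 1 was lowest for Idh3a and Idh3b and highest for Idh3g. Idh2 exceeded Idh3a by 1.64 (SE 0.0812, edgeR adjusted p = 1.84e-05). Idh3a was below Idh3b by -0.70 (edgeR adjusted p = 0.000218) and below Idh3g by -0.57 (edgeR adjusted p = 0.0032). Without a length correction these were 0.16 (edgeR adjusted p = 0.0636) and 0.33 (edgeR adjusted p = 0.0249), and with the longest annotated transcript as length Idh3a over Idh3g was 0.02 (edgeR adjusted p = 0.872). Idh3b and Idh3g did not pass the test (0.14, 95% interval -0.10 to 0.38, edgeR adjusted p = 0.2), although Idh3b was higher without heart 1 (0.24, edgeR adjusted p = 0.0175).

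In the 2-oxoglutarate dehydrogenase complex, Ogdh, the E1 subunit, was at 801, 947 and 993 TPM and lowest in heart 1. Its paralog Ogdhl, best known from brain, was at 12.8, 12.7 and 9.96 TPM. Ogdh exceeded Ogdhl by 6.27 (SE 0.169, edgeR adjusted p = 2.41e-06) and Pdha1, the corresponding subunit of the pyruvate complex, by 0.52 (SE 0.0392, edgeR adjusted p = 9.96e-05). Counts of Ogdh were fractional. On counts not divided by length, Ogdh exceeded Pdha1 by 1.12 and the ratio of Dlst to Ogdh was -1.61. Dlst, the E2 core, was at 414, 489 and 491 TPM, below Ogdh by -0.97 (edgeR adjusted p = 1.04e-05) and above Dlat by 1.23 (edgeR adjusted p = 2.56e-05).

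Succinyl-CoA ligase pairs the shared alpha subunit Suclg1 with either the ATP-forming beta subunit Sucla2 or the GTP-forming Suclg2. By TPM, Suclg1 was the steadiest gene of the set, at 441, 449 and 451 TPM (coefficient of variation 1.22%). That place depended on the scale. By CPM, Suclg2 was steadier (123, 122 and 119) than Suclg1 (293, 293 and 306). Sucla2 was at 457, 500 and 512 TPM and Suclg2 at 73.5, 73.8 and 69.5 TPM. Sucla2 exceeded Suclg2 by 2.76 (SE 0.0878, edgeR adjusted p = 3.92e-06), with 2.64, 2.76 and 2.88 in hearts 1, 2 and 3, and by 2.06 on counts not divided by length. Suclg1 and Sucla2 did not pass the test either (-0.13, 95% interval -0.31 to 0.05, edgeR adjusted p = 0.123). Suclg1 was lower with the longest annotated transcript as length (-1.07, edgeR adjusted p = 4.77e-05), on counts not divided by length (-0.76, edgeR adjusted p = 0.000204) and by DESeq2 (-0.13, DESeq2 adjusted p = 0.0221).

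Fh1, fumarase, was at 439, 472 and 478 TPM. Mdh2 (Entrez gene 17448, chromosome 5, 135778649 to 135790386), the mitochondrial malate dehydrogenase that closes the cycle, was at 1785, 1977 and 2040 TPM. Heart 1 was lowest for each. Fh1 was below Mdh2 by -2.06 (SE 0.0568, edgeR adjusted p = 2.5e-06) and Cs below Mdh2 by -0.84 (SE 0.0408, edgeR adjusted p = 1.75e-05). The ratio of Cs to Mdh2 was 0.36 on counts not divided by length (edgeR adjusted p = 0.000449).

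The shuttle enzymes came in cytosolic and mitochondrial forms. Mdh1, the cytosolic malate dehydrogenase, was at 1420, 1664 and 1563 TPM. It was below Mdh2 by -0.32 (SE 0.0473, edgeR adjusted p = 0.00163), not called with the longest annotated transcript as length (-0.08, edgeR adjusted p = 0.181) and reversed on counts not divided by length (0.33, edgeR adjusted p = 0.00135). Got1, the cytosolic aspartate aminotransferase, was at 331, 400 and 390 TPM and the mitochondrial Got2 at 762, 900 and 919 TPM. Got1 was below Got2 by -1.20 (SE 0.0578, edgeR adjusted p = 1.67e-05), with -1.20, -1.17 and -1.24 in hearts 1, 2 and 3. In the cytosol, Mdh1 exceeded Got1 by 2.05 (SE 0.0511, edgeR adjusted p = 2.07e-06). Summed, Mdh2 and Got2 stood at 2794 ± 218 TPM and Mdh1 and Got1 at 1922 ± 158 TPM, a log2 ratio of 0.54 ± 0.0602. Glud1, glutamate dehydrogenase, was at 90.2, 100.5 and 97.8 TPM, below Got2 by -3.16 (SE 0.0697, edgeR adjusted p = 1.61e-06).

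Malic enzymes, which turn malate into pyruvate, were led by Me1, the cytosolic NADP-dependent form, at 94.3, 73.0 and 73.3 TPM. Heart 1 was highest. The mitochondrial Me3 was at 34.2, 37.3 and 42.5 TPM and Me2 at 9.78, 12.9 and 11.2 TPM. Me1 exceeded Me2 by 2.83 (SE 0.201, edgeR adjusted p = 8.02e-05). Me3 lay below Me1 by -1.07 (edgeR adjusted p = 0.00204) and above Me2 by 1.76 (edgeR adjusted p = 0.000207).

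Nnt (Entrez gene 18115, chromosome 13), the transhydrogenase that makes mitochondrial NADPH from NADH, was at 165, 205 and 202 TPM, lowest in heart 1. As background, C57BL/6J mice are known to carry a deletion of several exons of Nnt and to lack a working protein. A count per gene does not show which exons the 5343, 6795 and 6978 counts came from, so the level is that of all Nnt transcripts. The table's span for Nnt (119335527 to 119429801, plus strand) reaches past the GENCODE gene (119335528 to 119408952, minus strand). Nnt was below Idh2, another source of mitochondrial NADPH, by -3.05 (SE 0.118, edgeR adjusted p = 7.32e-06), or -1.91 on counts not divided by length.

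Variation between hearts was tested for each gene of the whole table as its departure from an equal level, given the spread of genes of like abundance (edgeR goodness of fit). Of the 38 genes 1 passed, Pck1 (edgeR adjusted p = 1.2e-06), against 202 of 13312 genes, or 1.52%. At an unadjusted p under 0.05 there were 3 (Pck1, Mpc1 and Pcx), against 5.21% of all genes. Mpc1 and Pcx had edgeR adjusted p of 0.613 and 0.789. The median coefficient of variation was 9.79% over the 38 genes and 8.83% over detected genes. Over the 10391 detected genes within the range of TPM of the 38 it was 7.89%. By step the median was highest for carboxylation and phosphoenolpyruvate genes (26.2%) and lowest from 2-oxoglutarate to oxaloacetate (6.38%).

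The call for Pck1 rested on heart 2. Without heart 2 it was lost (edgeR adjusted p = 1), while it held without heart 1, the heart with the airway genes (edgeR adjusted p = 6.3e-16), and also with heart 3 left out (edgeR adjusted p = 0.00293). Adipocyte genes were also low in heart 2: 11 of 12 markers had their lowest level there, against 21.3% of detected genes, and 9 of 12 had their highest in heart 1, against 42.5%. The 12 include Retn and Lep, which did not reach the detection minimum (Lep at 7, 4 and 7 counts). Adipoq, the fat cell hormone adiponectin, was at 29.4, 11.5 and 23.6 TPM (edgeR adjusted p = 0.0168). Ucp1, the uncoupling protein of brown fat, was at 301, 120 and 201 TPM (edgeR adjusted p = 6.67e-06), and Plin1, which coats lipid droplets, at 21.0, 7.18 and 13.1 TPM (edgeR adjusted p = 0.00288). These 3 were named after their values were seen. Fabp4, a fatty acid binding protein of fat cells and endothelium, was the highest marker and was at 3022, 2987 and 3076 TPM. Of the marker list, Retn was at 0 counts in heart 2 and at 3 and 6 in hearts 1 and 3. The part of adipocyte RNA in the variation of Pck1 was not tested. Pcx, Idh3g and Me1 were also lowest in heart 2.

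**Figure D3:**
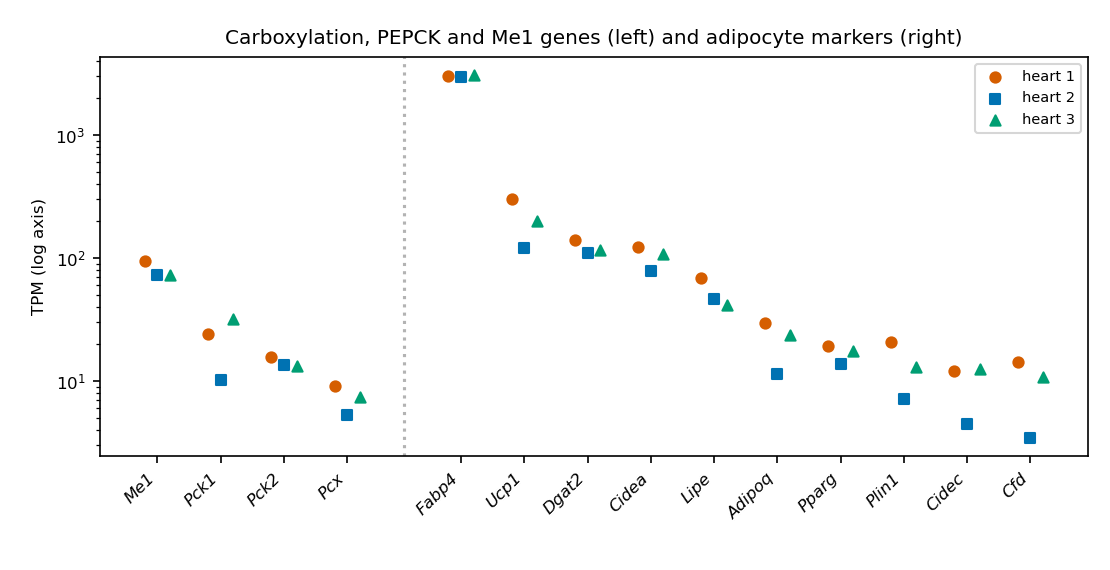
TPM on a log axis in each heart for Me1, Pck1, Pck2 and Pcx (left) and for the 10 adipocyte markers with a mean of at least 1 TPM (right). Heart 2 is the lowest point for Pck1, Pcx, Adipoq, Plin1 and Ucp1, and Fabp4 lies at about the same level in every heart.

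Across the set, 25 of 38 genes had their lowest TPM in heart 1, against 32.6% of detected genes. Heart 2 was lowest for 4 (21.3% of detected genes) and heart 3 for 9 (46.0% of detected genes). No member other than Pck1 passed the test of variation, so these are orders of 3 values. On scales chosen after seeing the data, the count was 24 by CPM and 27 by TMM-scaled counts or DESeq2 size factors, where 32.9%, 40.3% and 40.2% of detected genes were lowest in heart 1. The median log2 difference of heart 1 from the mean of the other hearts was -0.13 over the 38 genes and 0.03 over detected genes. By step, heart 1 was lowest for 2 of 2 carrier genes, 5 of 5 pyruvate dehydrogenase subunits, 6 of 8 genes from 2-oxoglutarate to oxaloacetate and 6 of 7 shuttle and malic enzyme genes. It was lowest for 3 of 7 genes from citrate to 2-oxoglutarate, 2 of 5 kinases and phosphatases, and 0 of 3 carboxylation genes. The genes lowest in heart 3 included Idh1, Idh2, Aco1, Ogdhl, Suclg2, Pdk1 and Pdk3. The summed level of the 7 chosen genes from citrate to 2-oxoglutarate, cytosolic and mitochondrial, was 4801, 4829 and 4777 TPM. That of the 8 chosen genes from 2-oxoglutarate to oxaloacetate was 4422, 4920 and 5046 TPM. These sums are partial, since the chosen list lacks other genes of these steps, such as the succinate dehydrogenase subunits. The airway genes were instead highest in heart 1, where they held 0.248% of TPM, and their part in this order was not tested. Cardiomyocyte markers summed to 104339 TPM in heart 1, between heart 2 (102946 TPM) and heart 3 (108840 TPM). Single markers differed in order. Actc1 was lowest in heart 1 (17723, 21548 and 23603 TPM) and Tnnt2 highest there (14698, 11977 and 12054 TPM). The part of cardiomyocyte content in the order of the 38 genes was not tested.

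**Figure D4:**
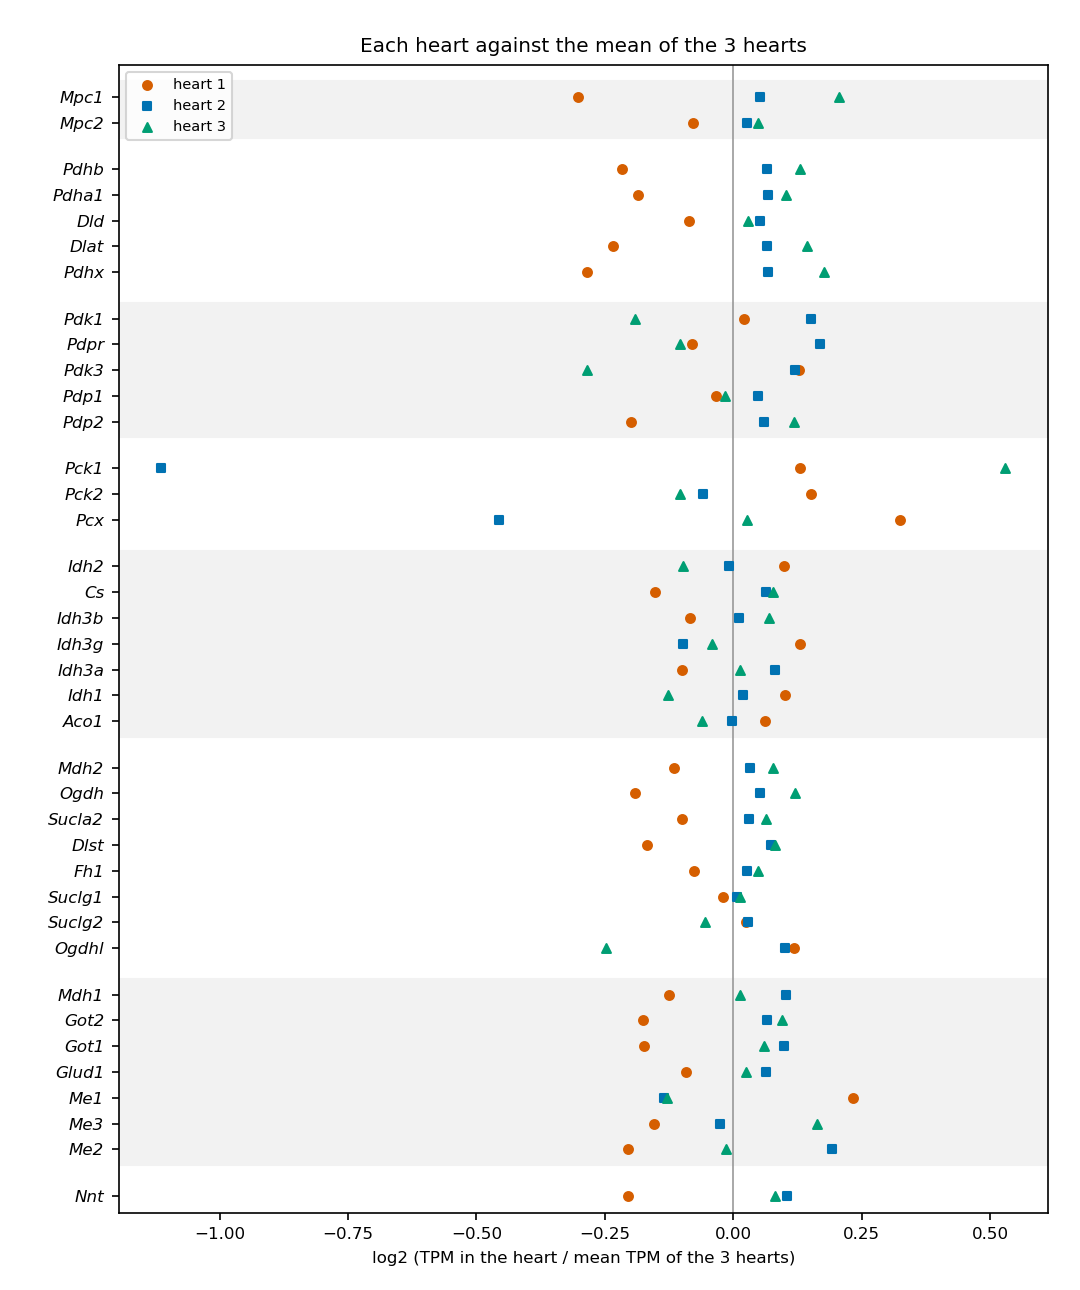
Log2 of each heart's TPM over the mean of the 3 hearts for the 38 genes, in the order of steps used for the plot of levels. The heart 1 points lie to the left for both carrier genes and all 5 pyruvate dehydrogenase subunits, to the right for Idh2, Idh3g and Me1, and Pck1 has the widest spread.

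Of 37 further genes of the same pathways in the table, 35 were detected. Among the highest were the lactate dehydrogenases Ldhb (1588 to 1616 TPM) and Ldha (1065 ± 119 TPM) and Sdhb, a succinate dehydrogenase subunit, at 857 ± 89.3 TPM. Of the 35, 1 passed the test of variation, against 1.52% of all genes tested. This was Oxct1, an enzyme of ketone body use, at 133, 243 and 239 TPM (edgeR adjusted p = 0.00621), lowest in heart 1. Heart 1 was lowest for 17 of the 35, heart 2 for 8 and heart 3 for 10, where the shares of detected genes were 32.6%, 21.3% and 46.0%. The shuttle's carriers were named for their role: Slc25a11, the malate carrier, was at 385 ± 33.5 TPM, and the aspartate-glutamate carriers Slc25a12 and Slc25a13 were at 153 ± 5.70 and 63.4 ± 2.97 TPM.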

How the data were processed

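Per the labels' protocols, total RNA of the 3 hearts was isolated with Trizol and DNBSEQ libraries were made from it. For each heart the deposited table holds read counts and the authors' FPKM, per the file headers. Between 87.5% and 87.6% of counts were within 0.005 of a whole number, so the authors' deposited values are estimated counts, and they were rounded for testing. The submitters' processing notes name HISAT and GRCm38.p6. The counting tool, its annotation and any strand setting: not given in the sources used here. Reads of antisense partners therefore cannot be separated. The table's strand differed from GENCODE M21 for 8 of the 38 genes, and its span equalled that of RefSeq for 13 and was over 1.2 times as long for 6 (Dld, Pdp1, Pck2, Aco1, Idh2 and Nnt), whose counts may include reads from beyond the gene. A line without values was left out.

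TPM is the deposited FPKM rescaled to 1000000 per heart. Gene lengths were those implied by count and FPKM. Pairs were tested in edgeR 4.0.16 (R 4.3.3, limma 3.58.1) with the heart as a block and TMM-scaled library sizes times gene length as offset, two-sided, with Benjamini-Hochberg adjustment. Variation was tested by the deviance from an intercept-only fit with trended dispersion, over genes with a mean of 1 CPM. DESeq2 1.42.0 was an alternative. The scripts were tested on simulated data. Libraries were compared by chi-square of counts (8.49 to 20.7 per degree of freedom) and differed by more than counting noise. Each was counted as a separate sample, although this comparison cannot show that they came from separate animals. All 38 genes, the 33 pairs chosen by role and, of the further pathway genes, the 4 highest and those that varied are named, except 1 that is not reported here. Members, pairs and lists were chosen with earlier results of these data known.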

Additional observations from a re-analysis of the deposited data

How the results depend on the processing

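The number of differing pairs stayed between 639 and 666 of 703 under every alternative. It was 653 with longest transcript lengths, 648 without a length correction, 650 with no replicate block and 666 with DESeq2. When a heart was left out it was 639 to 654. Dropping the detection minimum could not change the 650 pairs or their ratios, since all 38 genes pass it. Of the 33 pairs chosen by role, 21 kept direction and side of the threshold in every alternative and 12 did not. The 8 reversals all came from the choice of length. Without a length correction the log2 ratio turned for Pdha1/Pdhb (0.60), Idh3a/Idh3b (0.16), Idh3a/Idh3g (0.33), Aco1/Idh1 (0.46), Cs/Mdh2 (0.36) and Mdh1/Mdh2 (0.33), and with longest transcript lengths for Pdha1/Pdhb (0.34) and Idh3a/Idh3g (0.017). The longest annotated transcript exceeded the implied length by over 1.5 times for 7 of the 38 genes. With no replicate block 1 of the 33 calls changed, that of Pck1/Pck2 (0.66). The number of members that varied between hearts was 1 under each alternative except without heart 2, where it was 0, a range of 0 to 1. Over all genes, leaving out a heart gave 93 to 138 variable genes against 202, with fewer samples. All 38 genes stayed detected in each alternative. Ranks by CPM moved beyond their spread between hearts for 32 of the 38 genes.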
